A study of Homo sapiens with 8 samples.

Results

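This account describes ribosome footprints on 10 genes of growth factor signalling in human ovarian cancer cells: the receptor tyrosine kinases EGFR, ERBB2, ERBB3, INSR, IGF1R, MET, FGFR1 and FGFR2, and the insulin receptor substrates IRS1 and IRS2. The genes were chosen by name, by giving a gene symbol to each region of the count tables, and they make up 10 of 20165 regions. Ribo-seq counts the short pieces of mRNA that ribosomes protect from RNase, so the reads on a coding sequence (CDS) depend on how much of an mRNA is present and on how many ribosomes it carries. These are counts from whole lysates, and fewer cells with an mRNA cannot be told apart from less of it in each cell.

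The series asks how mono-ADP-ribosylation (MARylation) of RACK1, a protein of the small ribosomal subunit, bears on translation. All 8 libraries came from OVCAR3, an established ovarian cancer line, in 4 groups of 2 libraries. In RACK1-WT and RACK1-Mut cells the endogenous RACK1 was knocked down and RACK1 was put back, as wild type or with the MARylated residues mutated, from constructs switched on with 1 µg/ml doxycycline for 48 h. The siRNA experiment used OVCAR3 cells without these constructs. They received siRNA at 30 nM for 48 h, either a control (siControl) or one directed at OARD1 (siTARG1), the gene of TARG1, a hydrolase that removes ADP-ribose. The RACK1 constructs were delivered by lentivirus and selected with antibiotics, and whether the lines are clones is not given in the sources used here. Which of the TARG1 siRNAs listed in the methods went into these libraries is likewise not given there.

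CDS reads per library ranged from 3100947 to 6604190. OARD1 had 138 and 58 CDS reads under siControl and 7 and 6 under siTARG1. RACK1 had 23335 and 23594 normalized counts (reads divided by DESeq2's size factors) in RACK1-WT and 17745 and 17274 in RACK1-Mut cells, and these do not separate the endogenous from the re-expressed gene. Of 13 markers of ovarian carcinoma epithelium, 12 (among them PAX8, MUC16, EPCAM and KRT8) had at least 10 CDS reads in every library, and the region of the remaining marker, CLDN4, has no countable CDS position in the files. Of the markers of other cell types, the leukocyte genes CD3E, ITGAM and MS4A1 and the endothelial gene CDH5 were at 0 in all 8 libraries. Others had reads, namely COL1A1 of the fibroblast list (58 to 231 CDS reads per library), the leukocyte marker CD14 (5 to 50) and the endothelial markers KDR (1 to 67) and VWF (2 to 15). The remaining ones stayed between 0 and 34 reads, and PECAM1 was not matched to a region. All values written ± are SDs over 2 libraries (n = 2). The labels do not say whether the libraries of a group came from separate cultures. The study's methods say of its sequencing experiments in general that independent biological samples were used.

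Receptor tyrosine kinases sit in the plasma membrane, bind a growth factor outside the cell and phosphorylate tyrosines on themselves and on docking proteins inside it. EGFR, ERBB2 and ERBB3 belong to one family and pair with each other: EGFR binds EGF-like ligands, ERBB2 has no known ligand of its own, and ERBB3 binds neuregulins but has a kinase domain with little activity. INSR and IGF1R answer to insulin and insulin-like growth factors and pass the signal through IRS1 and IRS2, MET is the receptor of hepatocyte growth factor, and FGFR1 and FGFR2 bind fibroblast growth factors. The signal runs on through the RAS-ERK and PI3K-AKT pathways, and members of the group, ERBB2 and FGFR family genes included, are altered in a number of carcinomas.

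Because the receptors are related, it matters whether a footprint can be assigned to one of them. The catalytic loop is among the most conserved parts of the kinase domain, and 30 coding bases of it, about the length of a footprint, are shown here for 6 receptors, 5′ to 3′ on the coding strand, from GRCh37. The capitals mark the codon of the catalytic aspartate or the residue that stands in its place.

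EGFR (chr7:55259439-55259468, plus strand): ttggtgcaccgcGACctggcagccaggaac
ERBB2 (chr17:37881329-37881358, plus strand): ctcgtacacaggGACttggccgctcggaac
ERBB3 (chr12:56491596-56491625, plus strand): atggtgcatagaAACctggctgcccgaaac
IGF1R (chr15:99482523-99482552, plus strand): ttcgtccacagaGACcttgctgcccggaat
MET (chr7:116422117-116422146, plus strand): tttgtccacagaGACttggctgcaagaaac
FGFR2 (chr10:123247598-123247627, minus strand): tgtattcatcgaGATttagcagccagaaat

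In ERBB3 this codon is that of asparagine, in FGFR2 aspartate is written GAT, and in the other 4 it is GAC. Pairs of these stretches shared between 15 (ERBB2 and FGFR2) and 23 (IGF1R and MET) of 30 bases. Over the longest coding sequence annotated for each gene's region, no 26-base window of EGFR, ERBB2, INSR, IGF1R, MET or FGFR2 occurred in the transcripts of another gene. The shares were 0.17% for ERBB3, 0.25% for FGFR1 (windows also found in FGFR3 and FGFR4), 0.16% for IRS1 and 0.25% for IRS2, and no window was shared between 2 of the 10 genes. These counts of exact matches leave little room for reads that fit a second gene equally well. For FGFR2 the sequence searched had 2469 bases and the counted region has 2614 CDS bases, so part of that region was not searched. The region of IGF1R carries transcript identifiers that the symbol table does not list, and it was named by its CDS length of 4104 bases and 3′ UTR length of 7088 bases, which match IGF1R and no other gene.

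Levels were compared between genes as the CDS reads of a gene divided by the length of its CDS in kilobases and by the CDS reads of the library in units of 1000000, which is called the level in what follows. In siControl cells the highest of the 10 genes, ERBB3, stood at the percentile 64.2 of the tested genes and the lowest, IRS1, at 27.7. In the other groups EGFR was at percentile 80.5 to 81.1, and IRS1 at 20.5 to 22.7.

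In the EGFR family, EGFR had a level of 24.5 ± 0.987 in siControl, 67.8 ± 5.49 in siTARG1, 69.2 ± 0.0254 in RACK1-WT and 69.6 ± 3.13 in RACK1-Mut cells. ERBB2 had 17.7 ± 1.04, 20.8 ± 1.47, 19.7 ± 2.79 and 19.2 ± 1.14 in the same order, and ERBB3, its partner, 29.1 ± 1.11, 32.2 ± 0.105, 40.04 ± 3.71 and 40.3 ± 1.09. EGFR was thus low in the siControl cells alone among the 4 groups, ERBB2 was close to even, and ERBB3 was somewhat higher in both RACK1 lines than in both siRNA groups.

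For the insulin and IGF1 receptors, the level of INSR was 5.57 ± 0.260 in siControl, 6.49 ± 0.295 in siTARG1, 13.3 ± 0.900 in RACK1-WT and 11.8 ± 1.00 in RACK1-Mut cells. IGF1R had 8.41 ± 0.226, 6.32 ± 0.0668, 7.15 ± 0.610 and 7.60 ± 0.766. INSR was the lower of this pair in siControl cells and the higher in both RACK1 lines, without overlap of the libraries.

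MET had a level of 17.6 ± 2.04 in siControl, 17.6 ± 2.87 in siTARG1, 11.0 ± 1.44 in RACK1-WT and 11.8 ± 0.493 in RACK1-Mut cells. FGFR1 had 19.8 ± 3.77, 37.6 ± 0.660, 67.5 ± 0.462 and 70.2 ± 5.31, and FGFR2 5.68 ± 1.74, 13.4 ± 0.891, 11.4 ± 0.221 and 10.7 ± 0.0382. The FGF receptors had their lowest level in siControl cells, and MET its highest in the siRNA-treated cells.

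Of the docking proteins, IRS1 was the lowest of the 10 genes in every group, with 5.29 ± 0.717 in siControl, 3.27 ± 0.565 in siTARG1, 4.24 ± 0.944 in RACK1-WT and 4.24 ± 0.00281 in RACK1-Mut cells. IRS2 had 10.9 ± 0.694, 11.2 ± 1.58, 59.9 ± 9.30 and 56.3 ± 4.42, which placed it below EGFR and 1 other of the 10 genes in both RACK1 lines, and at rank 6 or 7 in the siRNA-treated cells.

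**Figure D1:**
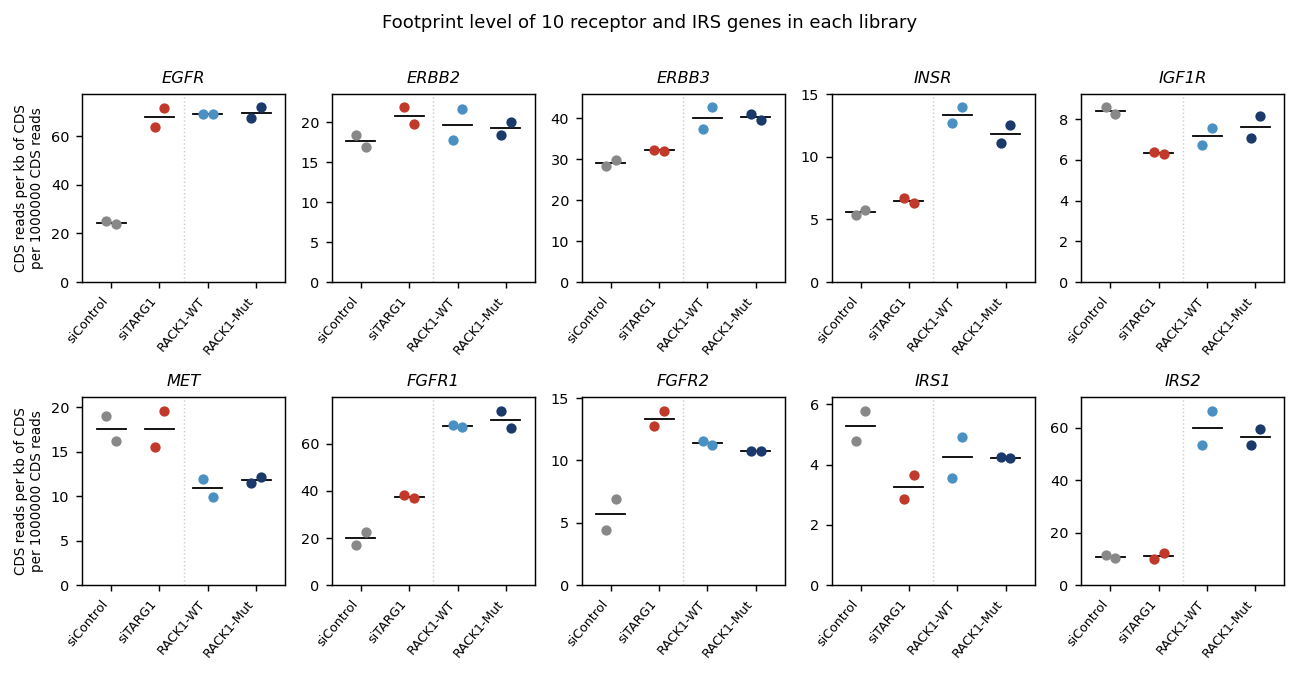
Level of each gene (CDS reads per kilobase of CDS per 1000000 CDS reads, linear axis from 0 with its own scale in each panel) in the 8 libraries. Points are libraries, black bars are means of 2, and the dotted line divides the siRNA experiment from the RACK1 experiment. EGFR, FGFR1 and FGFR2 were lower in both siControl libraries than in any other library, and IRS2, FGFR1 and INSR were highest in the RACK1 lines.

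By level, the order in siControl cells was ERBB3, EGFR, then FGFR1, ERBB2 and MET with overlapping libraries, then IRS2, IGF1R, and last FGFR2, INSR and IRS1, again overlapping. In siTARG1 cells EGFR and FGFR1 came first and second, ahead of ERBB3, ERBB2, MET, FGFR2 and IRS2, and INSR and IGF1R overlapped ahead of IRS1. In RACK1-WT cells the order was EGFR, FGFR1, IRS2, ERBB3, ERBB2 and INSR, then FGFR2 and MET with overlapping libraries, IGF1R and IRS1. In RACK1-Mut cells EGFR and FGFR1 overlapped at the top and MET and INSR overlapped in the middle.

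The 2 experiments differ in the OVCAR3 cells used (with or without lentiviral constructs and selection), transfection, doxycycline and RACK1 manipulation at once. These cannot be told apart, so levels in the control groups are set side by side with no test. From siControl to RACK1-WT cells the level ratio was 5.48 for IRS2, 3.41 for FGFR1, 2.83 for EGFR, 2.39 for INSR, 2.00 for FGFR2 and 1.37 for ERBB3. It was 1.11 for ERBB2, 0.850 for IGF1R, 0.802 for IRS1 and 0.623 for MET. The library ranges of ERBB2 and IRS1 overlapped between these groups, and those of the other 8 genes did not.

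The first comparison asks whether losing the MARylation sites of RACK1 changes the footprints on these genes. None of the 10 genes changed in RACK1-Mut cells by DESeq2's Wald test with a call set at an adjusted p (Benjamini-Hochberg) under 0.05, which 0.0799% of the 12520 genes tested passed. RACK1 itself passed, being lower in RACK1-Mut cells (0.746-fold, DESeq2 adjusted p 1.34e-08). The groups thus differ in RACK1 footprints as well as in its MARylation sites, and these cannot be told apart. All 10 genes had an adjusted p of 1.00 after rounding, none had an unadjusted p under 0.05, and edgeR's quasi-likelihood test also called 0. Their median log2 fold change was -0.018, beside -0.0017 over all genes tested.

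None of the genes was too low to judge, which was set at a mean of under 20 normalized counts over the 4 libraries. The lowest mean was that of IRS1, at 79.5, and the others ran from 146 (FGFR2) to 1269 (EGFR). The 95% interval of each fold change gives the range of changes that the counts allow.

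EGFR, the best counted, had 1284 and 1268 normalized counts in the RACK1-WT libraries and 1219 and 1306 in the RACK1-Mut libraries. The groups overlapped, and the interval of the log2 fold change of -0.02 ran from -0.20 to 0.16, or 0.873-fold to 1.12-fold. ERBB3 (interval -0.23 to 0.20), FGFR1 (-0.17 to 0.24) and IRS2 (-0.33 to 0.11) were bounded nearly as closely.

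INSR had 268 and 292 normalized counts in RACK1-WT and 229 and 259.7 in RACK1-Mut cells. It was one of 2 genes, with FGFR2, whose groups did not overlap, as was the case for 37.6% of all genes tested, and its log2 fold change of -0.20 (SE 0.168) was the furthest from 0 of the 10 (interval -0.53 to 0.13). FGFR2 had 154 and 148 in RACK1-WT and 139.6 and 141 in RACK1-Mut cells, a log2 fold change of -0.10 with an interval of -0.52 to 0.31. The intervals were -0.35 to 0.24 for ERBB2, -0.35 to 0.48 for IGF1R and -0.27 to 0.42 for MET.

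IRS1 had the widest interval. It had 68.02 and 92.3 normalized counts in RACK1-WT and 78.7 and 79.1 in RACK1-Mut cells, with both RACK1-Mut libraries between the RACK1-WT ones. The interval of its log2 fold change of -0.02 ran from -0.60 to 0.55, or 0.661-fold to 1.47-fold.

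**Figure D2:**
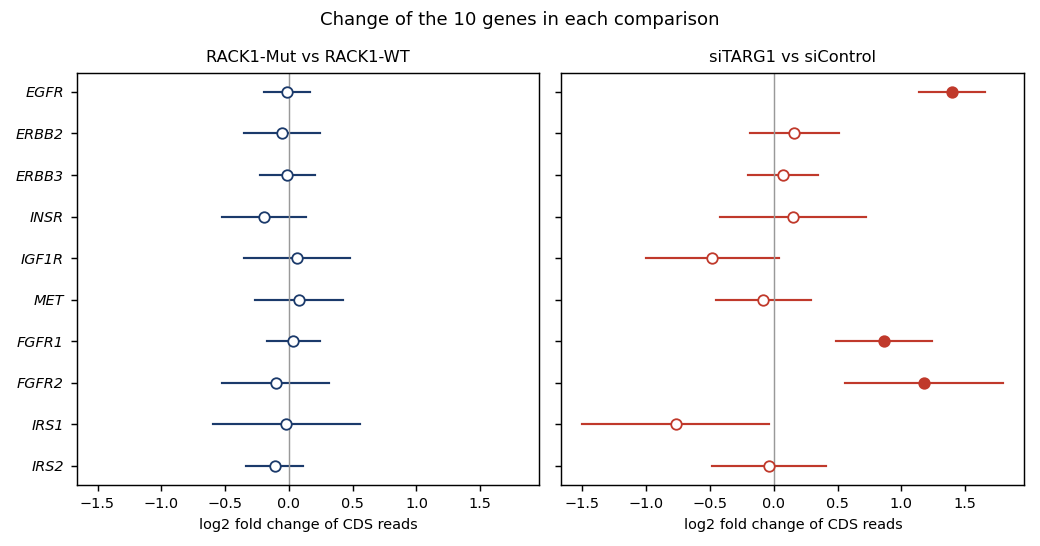
Log2 fold change of CDS reads for each gene in RACK1-Mut against RACK1-WT cells (left) and siTARG1 against siControl cells (right). Circles are DESeq2 estimates from 2 libraries against 2, lines are 95% intervals, and filled circles have an adjusted p under 0.05. In the left panel every interval includes 0, and in the right panel EGFR, FGFR1 and FGFR2 lie above 0 with filled circles.

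The second comparison asks what TARG1 depletion does to the same genes. By DESeq2, 3 of the 10 rose in siTARG1 cells, the receptors EGFR, FGFR1 and FGFR2, and none was called as lower. By edgeR the same 3 rose, and IRS1 and IGF1R were called as lower. Among the 12056 genes tested 16.4% were called, 7.18% as higher and 9.19% as lower, so a call in this comparison is common. RACK1 was also called, being lower in siTARG1 cells (0.840-fold, DESeq2 adjusted p 0.00297). The part of this difference in the changes of the 10 genes was not tested. The median log2 fold change of the 10 genes was 0.11, beside 0.003 over all genes tested. None was too low to judge, the lowest mean being again that of IRS1, at 57.9 normalized counts. The summed level of the epithelial markers was lower in siTARG1 (4707 and 5121) than in siControl cells (7013 and 7126), without overlap. In the same cells the sum was 6.79 to 9.80 against 6.40 to 6.43 for the fibroblast list, 2.95 to 4.79 against 1.26 to 1.43 for the leukocyte list and 0.153 to 0.171 against 0.546 to 0.922 for the endothelial list. The leukocyte sum was nearly all CD14 (5 to 50 CDS reads per library over all 8 libraries). The endothelial sum was KDR (1 to 67 over all 8) and VWF (2 to 15). KDR had 8.79 and 4.77 normalized counts in siControl and 0.832 and 1.12 in siTARG1 cells, so few reads stand behind the endothelial sum there. In the epithelial sum KRT8 and KRT18 weighed heavily, with levels up to 2343 and 2582 over the 8 libraries, against up to 434 for PAX8. A few genes therefore set these sums, which do not stand for whole marker lists. The part of the differences between the sums in the changes of the 10 genes was not tested.

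EGFR (ENSG00000146648, chromosome 7, 55086710 to 55279321, plus strand) was counted at 338 and 319 in siControl and at 813 and 921 in siTARG1 cells, after normalization. Both siTARG1 libraries stood far above both siControl ones. The fold change was 2.63 (95% interval 2.20 to 3.14), a log2 fold change of 1.39 (SE 0.132) with an adjusted p of 1.23e-23 by DESeq2. EGFR ranked 39 of all genes by adjusted p and 76 by fold among the 778 genes called higher with a mean of at least 50. It was called as higher without each of the 4 libraries in turn.

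FGFR2, a receptor whose splice forms separate epithelial from mesenchymal ligand use, lies on chromosome 10, 123237846 to 123357972, minus strand (ENSG00000066468). It had 43.1 and 66.8 normalized counts in siControl and 117 and 129 in siTARG1 cells. The groups did not overlap, but the siControl libraries differed by more than the siTARG1 ones, and the reads behind them were few (49 and 56 CDS reads). The fold change was 2.26 (interval 1.47 to 3.48), a log2 fold change of 1.18 (SE 0.317) with a DESeq2 adjusted p of 0.00243. The call did not survive leaving out the first siControl library (adjusted p 0.303), the first siTARG1 library (0.161) or the second (0.218), although the log2 fold change stayed between 0.87 and 1.51. Region counts join the splice forms of a gene, so they do not tell which form the reads came from.

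FGFR1 (ENSG00000077782) had 156 and 205 normalized counts in siControl and 329 and 324 in siTARG1 cells. Both siTARG1 libraries were again above both siControl libraries. The fold change was 1.82 (interval 1.40 to 2.36), a log2 fold change of 0.86 (SE 0.192) with a DESeq2 adjusted p of 1.31e-04. It lost the call without the first siControl library (log2 fold change 0.66, adjusted p 0.143) and without the first siTARG1 library (0.85, adjusted p 0.0887). The related FGFR4, from the list of other receptor tyrosine kinases, had a log2 fold change of 0.48 and a DESeq2 adjusted p of 0.234, and FGFR3, with a mean of 10.9 normalized counts, was too low to judge.

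Of the other 7 genes, 2 had lower counts in both siTARG1 libraries and were called by one tool and not by the other. IRS1 (ENSG00000169047, chromosome 2, 227596028 to 227664536, minus strand) was at 65.9 and 79.9 normalized counts in siControl and 37.5 and 48.4 in siTARG1 cells, without overlap. Its log2 fold change of -0.77 (SE 0.373, interval -1.50 to -0.04) had an adjusted p of 0.152 by DESeq2 and 0.0223 by edgeR. IGF1R (ENSG00000140443, chromosome 15, 99191768 to 99507759, plus strand) had 130.1 and 125 in siControl and 91.6 and 91.1 in siTARG1 cells, also without overlap. Its log2 fold change of -0.48 (SE 0.266, interval -1.005 to 0.04) had an adjusted p of 0.222 by DESeq2 and 0.0401 by edgeR. With edgeR, 5 of the 10 genes and 28.8% of all genes tested were called, so that tool calls more genes in general.

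The remaining 5 genes were not called by either tool. ERBB2 (ENSG00000141736, chromosome 17, 37844167 to 37886679, plus strand) had 257 and 236 normalized counts in siControl and 288 and 263 in siTARG1 cells, a log2 fold change of 0.16 with an interval of -0.19 to 0.51. ERBB3 (ENSG00000065361, chromosome 12, 56470583 to 56497289, plus strand) had 419 and 442 against 452 and 454, a log2 fold change of 0.07 (interval -0.20 to 0.35). The siTARG1 libraries were the higher ones for both of these genes, by less than the test could resolve.

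INSR (ENSG00000171105, chromosome 19, 7112266 to 7294425, minus strand) was at 82.6 and 88.2 normalized counts in siControl and 97.4 and 92.2 in siTARG1 cells, a log2 fold change of 0.15 with a wide interval, from -0.42 to 0.73. MET (ENSG00000105976, chromosome 7, 116312250 to 116438431, plus strand) had 298 and 253 against 231 and 294, a log2 fold change of -0.08 (interval -0.45 to 0.29). IRS2 (ENSG00000185950, chromosome 13, 110405042 to 110438930, minus strand) was at 169.6 and 155 against 142 and 175, a log2 fold change of -0.04 (interval -0.49 to 0.41). MET and IRS2 were the genes whose siControl and siTARG1 libraries overlapped. The groups of the other 8 did not overlap, nor did those of 62.6% of all genes tested.

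Whether a gene changed differently in the 2 comparisons was tested in a fit of all 8 libraries, as the log2 fold change in siTARG1 cells minus that in RACK1-Mut cells. The difference was 1.41 (SE 0.143, adjusted p 1.57e-20) for EGFR, 1.30 (SE 0.341, adjusted p 0.00215) for FGFR2 and 0.84 (SE 0.184, adjusted p 1.24e-04) for FGFR1 by DESeq2, and 12.3% of all genes tested were called. For the other 7 genes the difference was not called. It was -0.54 (interval -1.14 to 0.05) for IGF1R and -0.74 (interval -1.59 to 0.10) for IRS1, and between -0.15 (MET) and 0.36 (INSR) for the rest.

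The 3′ UTRs of the 10 genes were searched for 2 sets of 7-letter words, TGAACAT or GAACATA and TGAATAT or GAATATA, which were taken up because of earlier results of these data on siTARG1 cells. Those results linked the first set to genes lower and the second to genes higher in siTARG1 cells. They came from these same data, so a match here is no independent support. The words were looked for on the transcript strand of the annotated 3′ UTRs. Adjacent words of a set overlap, and an overlapping pair was taken as 1 site. Of the 11841 tested regions with an annotated 3′ UTR, whose median length was 1224 bases, 18.6% held a word of the first set and 24.9% a word of the second. The 3′ UTRs of EGFR, FGFR1 and FGFR2, of 6011, 2485 and 1525 bases, held no word of either set, nor did those of ERBB2 and ERBB3. The words of the first set stood in IGF1R (1 site) and MET (2 sites) without any of the second, and the sites are shown with the word in capitals, 5′ to 3′ on the transcript strand, from GRCh37.

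IGF1R (chr15:99506143-99506172, plus strand): ttgtttctgcgaGAACATAacgatcactca
MET, upstream site (chr7:116437189-116437218, plus strand): atctaatgaatgTGAACATgtagatgtttt
MET, downstream site (chr7:116437734-116437763, plus strand): aacactgcactgTGAACATtttagaaaagg

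INSR held 2 sites of each set, IRS2 1 of the first and 2 of the second, and IRS1 2 of the second. A word in these letters is a match and not a shown site of action. Of the genes with a word of the first set and none of the second, IGF1R had the lower counts in siTARG1 cells given above (called by edgeR and not by DESeq2), and MET was not called by either tool. IRS1, with words of the second set alone, also had lower counts there (log2 fold change -0.77, called by edgeR and not by DESeq2), opposite to the direction linked to that set. The 3 genes that rose held neither word, and whether a word goes with a direction was not tested here.

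The share of a gene's footprints in its 5′ UTR, out of the reads in the 5′ UTR and the CDS together, was read for each library. Over all regions of the tables this share was 3.88% to 4.42% in the 8 libraries, and over the 10 genes summed it was 3.65% to 5.88%. The 10 genes differed widely. EGFR (0.543% to 0.664% with the libraries of a group summed) and MET (0.501% to 0.899%) had the lowest shares. FGFR1 (12.5% to 14.5%) and IRS1 (13.7% to 25.0%) had the highest shares in 3 of the 4 groups, and in siControl cells FGFR2 stood above them, at 16.7% (21 of 126 reads). FGFR1 and IRS1 also had the longest counted 5′ UTRs of the 10, with 1331 and 1021 bases, against 177 in EGFR and 200 in MET. The shortest were those of INSR (143 bases) and ERBB2 (159 bases). Their summed shares, 0.995% to 3.43% and 2.52% to 3.57%, were above those of EGFR and MET. The shares thus did not follow the length throughout, and a link between them was not tested.

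IGF1R had a 5′ UTR share of 10.3% and 14.6% in siControl and of 5.17% and 0% in siTARG1 cells, the last from 0 of 81 reads, which allows a share of up to 3.70%. With the libraries summed, it was 35 of 288 reads in siControl cells (12.2%, 95% exact Clopper-Pearson interval 8.61% to 16.5%) and 6 of 197 in siTARG1 cells (3.05%, 1.13% to 6.51%), an interval that covers counting error only. In RACK1-WT cells the share was 6.67% and 7.69%, and in RACK1-Mut cells 4.72% and 3.79%. The groups did not overlap in either comparison, but 2 libraries against 2 cannot give an exact two-sided permutation p under 0.33, which is the value found in both.

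Groups that did not overlap, with the same p of 0.33 by the exact permutation test, were seen for 3 of the 10 genes in siTARG1 cells and 2 in RACK1-Mut cells. This is near the background, since 28.8% of 9198 genes in the first of these comparisons and 27.6% of 10115 in the second also had groups that did not overlap, and the values that follow are a description. ERBB3 had 1.24% and 1.33% in siControl and 3.21% and 2.42% in siTARG1 cells, and IRS2 had 4.46% and 6.47% against 0.581% and 3.11%. IRS1 had 13.7% and 18.7% in RACK1-WT and 27.5% and 22.1% in RACK1-Mut cells, from 40 and 42 summed 5′ UTR reads. For the other genes the groups overlapped, and FGFR1, with the most 5′ UTR reads, had 13.05% and 15.8% in RACK1-WT and 13.6% and 13.95% in RACK1-Mut cells.

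**Figure D3:**
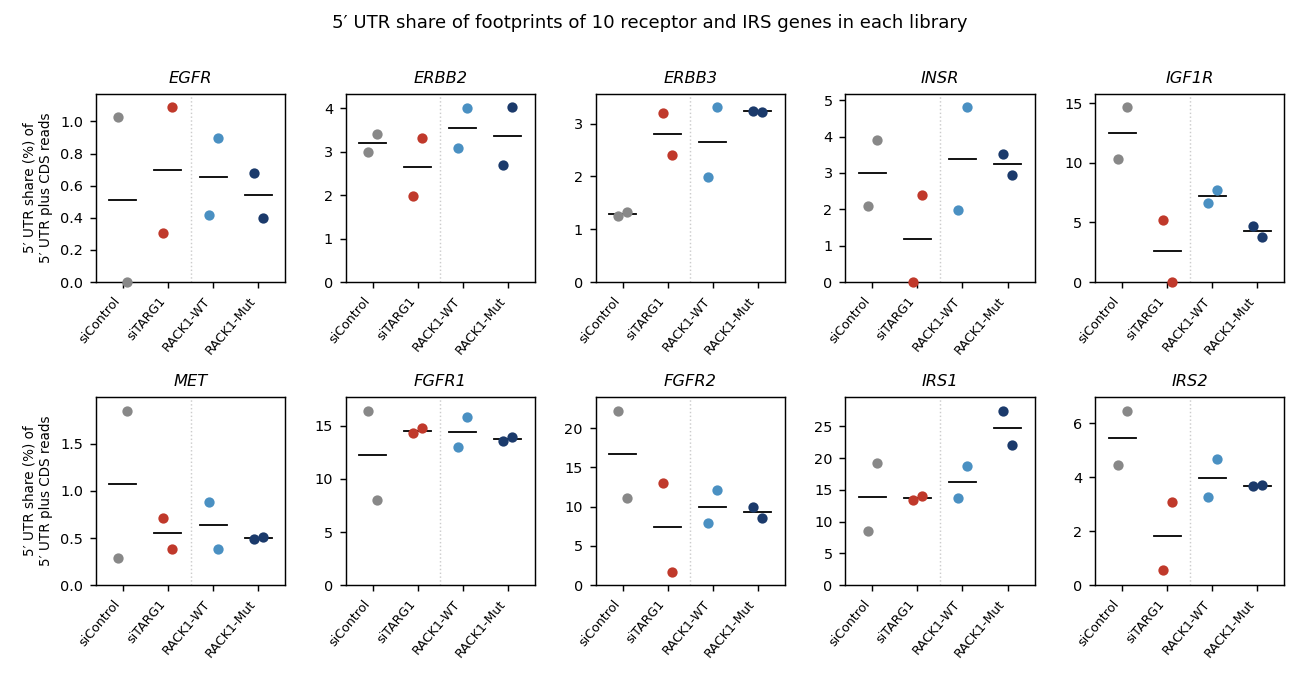
Share of footprints in the 5′ UTR (percent of 5′ UTR plus CDS reads, linear axis from 0 with its own scale in each panel) for each gene in the 8 libraries. Points are libraries and black bars are means of 2. For IGF1R both siControl libraries lie above both siTARG1 libraries, and for IRS1 both RACK1-Mut libraries lie above both RACK1-WT libraries.

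To place the 10 genes in their pathway, 7 lists of related genes were counted in the same fits, 204 genes in all. In RACK1-Mut cells 0 of the 140 list genes tested were called by DESeq2 or by edgeR, and 2 had an unadjusted p under 0.05. These were the ephrin receptor EPHA2, with 2065 and 2024 normalized counts in RACK1-WT and 1612 and 1811 in RACK1-Mut cells (DESeq2 unadjusted p 0.00316), and MST1R, the MET relative that binds macrophage-stimulating protein, with 46.4 and 48.2 against 59.6 and 97.6 (DESeq2 unadjusted p 0.0311). Next by p were PTK7, a receptor-like pseudokinase (0.0531), LRIG1, which restrains EGFR family receptors (0.0632), and GRB10, an adaptor that restrains INSR and IGF1R (0.0849), all unadjusted and from the DESeq2 fit.

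In siTARG1 cells 30 of the 135 list genes tested were called (22.2%, beside the 16.4% of all genes), 13 as higher and 17 as lower. The count was 46 with edgeR, which called 28.8% of all genes tested. It was smaller with any 1 library left out, where the share of all genes called is not given here. Among the other receptor tyrosine kinases, 3 of 29 tested rose and 2 fell, with a list median of 0.21. ERBB4, the EGFR relative that binds neuregulins, fell from 282 and 275 normalized counts to 75.7 and 84.3, a log2 fold change of -1.81 (SE 0.223), opposite to EGFR. EPHA3 fell (log2 fold change -0.87) and EPHA7 rose (0.87), both of them ephrin receptors.

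Of the ligands of the 10 genes, 11 of 33 were tested, 5 of these (EGF, BTC, NRG1, NRG2 and FGF18) had enough reads for DESeq2 to give an adjusted p, and none was called. The 3 ligands at a DESeq2 unadjusted p under 0.05 were BTC, FGF18 and IGF1, and IGF1, with a mean of 4.19 normalized counts, was too low to judge. The share of all genes at such a p is not given here. Many of the ligands, such as AREG with normalized counts of 0.832 to 6.15 in the siRNA libraries, had too few reads to judge. Of the proteins that process or bind ligands, 4 of 18 rose and 1 fell. IGFBP3, a binding protein of insulin-like growth factors, fell from 1411 and 1498 normalized counts to 594 and 652, a log2 fold change of -1.22 (SE 0.104). IGFBP4, of the same family, rose by 0.83 on the log2 scale from 416 and 375 to 728 and 681, and RHBDF2, which helps bring the sheddase of EGFR ligands to the cell surface, rose by 0.92.

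Among the adaptors and docking proteins 2 of 21 fell and none rose. CRKL, an adaptor that binds phosphorylated docking proteins, fell from 231 and 199 normalized counts to 49.9 and 61.9, a log2 fold change of -1.96 (SE 0.263). SHC1, which couples EGFR to RAS, fell by 0.39 on the log2 scale.

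Among the negative regulators 2 of 30 rose and 7 fell. CBL, the ubiquitin ligase that sends active EGFR and MET to the lysosome, rose from 46.6 and 42.9 normalized counts to 145 and 132, a log2 fold change of 1.62 (SE 0.306). ERRFI1, an inhibitor of the EGFR kinase, rose by 0.93, and the receptor phosphatase PTPRK fell by 1.59 on the log2 scale, from 650.4 and 582 to 192 and 219.

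Of the RAS and ERK cascade, 3 of 15 rose and 2 fell. NRAS rose by 0.89 and SHOC2, which helps activate RAF, by 0.86 on the log2 scale, and the kinase BRAF fell by 0.91. Of the genes that ERK signalling is known to induce, 2 of 17 rose and 3 fell, with a list median of -0.22. JUNB rose by 1.21 on the log2 scale, from 113 and 122 normalized counts to 259 and 283, whereas PHLDA1 fell from 80.0 and 124 to 7.49 and 13.5 and ETV5 from 89.6 and 63.2 to 29.1 and 30.4.

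**Figure D4:**
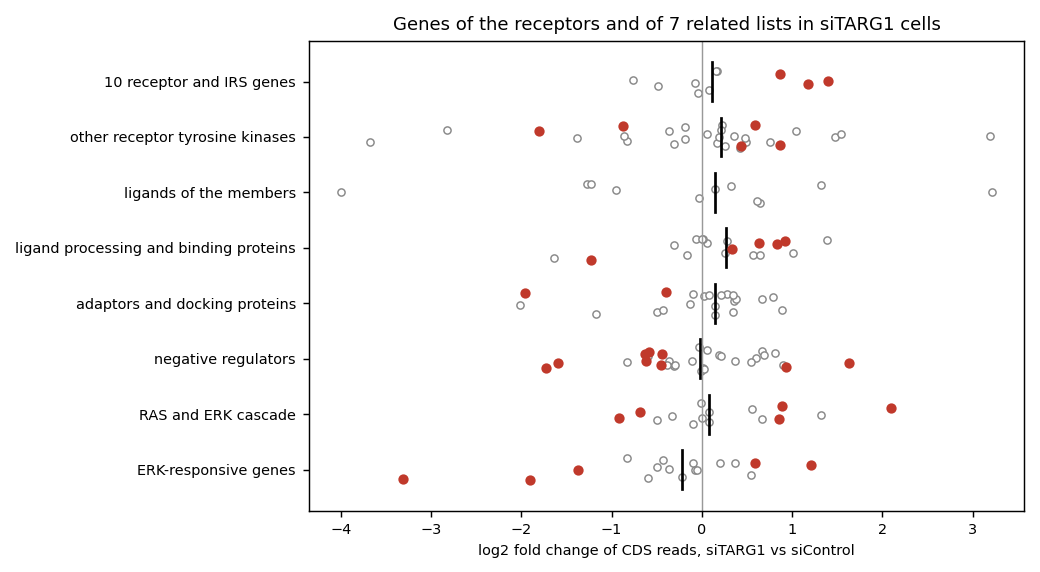
Log2 fold change of CDS reads in siTARG1 against siControl cells for the 10 genes and for the tested genes of 7 related lists. Each circle is a gene, red circles have a DESeq2 adjusted p under 0.05, black bars are list medians, and circles are spread vertically for legibility. Called genes lie on both sides of 0 in each list that holds at least 3 of them. The 3 called genes among the 10 lie above 0, and edgeR, whose calls are not drawn, also called IRS1 and IGF1R as lower.

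As a description, the genes whose counts followed a given receptor most closely over the 8 libraries were found by Pearson's r of log2(CPM + 1), among 8685 genes with a mean of at least 50 normalized counts. For EGFR these were NCAPD2 (r 0.995) and SLCO3A1 (r 0.995), for FGFR1 SLC27A3 (r 0.998) and SLC35F5 (r 0.995), and for FGFR2 VAV1 (r 0.989) and FBXL17 (r 0.987). Among the other 7 genes the closest match ran from r 0.938 (XYLT2 for ERBB2) to r 0.998 (ASMTL for IRS2). The 8 points share 2 experiments of 4 libraries each, and a difference in level between the experiments enters every r.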

How the data were processed

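Ribosome footprints were measured in 8 OVCAR3 libraries. The authors discarded rRNA reads with Bowtie 1.1.2, aligned the rest with TopHat2 2.1.1 allowing many hits per read, and counted with Plastid, so the deposited values are whole-number counts per region on hg19 with GENCODE release 24. Per the file headers, reads of 26 to 36 nt were placed by an offset of 14 nt on the 5′ side. The methods give one on the 3′ side instead, and the choice bears on reads at CDS edges. Whether reads were collapsed by molecular identifier is not given in the sources used here. The deposited RPKM columns of the authors were not used.

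Transcript identifiers were matched to GENCODE release 44 lifted to GRCh37, which named 19612 of the 20165 regions (97.3%), and another 59 were named by a CDS and 3′ UTR length that fitted 1 gene. This naming gave the same symbol for 6146 of 6307 regions that both ways could name (97.45%). CDS counts of each comparison's 4 libraries were tested with DESeq2 1.42.0 in R 4.3.3 (Wald test, at least 10 summed counts, default filtering). The study's methods name DESeq2 without these settings, which were chosen here, and no block for replicate number. Alternatives were edgeR 4.0.16, other scaling, filters and counts, a block, a fit of all 8 libraries, and leaving out each library. Intervals are 1.96 SE. Where a library is left out its group has 1, and the fit assumes it to vary like the other. Named are the 10 genes, OARD1 and RACK1, in each list the up to 3 called genes with a mean of at least 50 and the largest change, and, where under 3 list genes are called, the 5 with the smallest p. Genes chosen after their values were seen are FGFR3, FGFR4, EGF, BTC, NRG1, NRG2, FGF18, IGF1, AREG and, in siTARG1 cells, EPHA2. The 10 genes and the lists were chosen with earlier results of these data known. Scripts were tested on simulated data. Sequences were read from GRCh37 with GENCODE release 44, and some are not reported here.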

Additional observations from a re-analysis of the deposited data

Results flagged for a closer look

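For 3 genes the change in siTARG1 cells differed from the change in RACK1-Mut cells by DESeq2's test of the difference itself, although the manipulations compared are not the same one. The difference in log2 fold change was 1.41 for EGFR, 0.84 for FGFR1 and 1.30 for FGFR2, and edgeR called the same 3 genes at 1.41, 0.84 and 1.30. The OVCAR3 cells used (with or without lentiviral constructs), transfection and doxycycline differ between the experiments along with the manipulation and cannot be told apart.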

How the results depend on the processing

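Depth limits IRS1 and FGFR2 most in both comparisons, with 43 to 199 CDS reads per library. It also limits IGF1R in both (81 to 192), INSR in the siRNA libraries (74 to 117) and MET in the RACK1 libraries (195 to 335). The 2 libraries per group limit every p. In RACK1-Mut cells 0 of the 10 genes and 0 list genes were called in the settings that allow a call. The fit of all 8 libraries gave none of the 10 genes and 7 of 145 list genes an adjusted p (smallest unadjusted p of the 10 genes 0.259), and the one without the first RACK1-WT library gave 61 of 140 list genes one, so no count is drawn from these. With exon counts in place of CDS counts the log2 fold change of IRS1 turned to 0.14 from -0.02. Leaving out 1 library at a time, the log2 fold change there ran from -0.065 to 0.033 for EGFR, -0.18 to 0.087 for ERBB2, -0.096 to 0.075 for ERBB3, -0.042 to 0.17 for IGF1R, -0.057 to 0.23 for MET, -0.044 to 0.10 for FGFR1, -0.23 to 0.21 for IRS1 and -0.25 to 0.047 for IRS2. In siTARG1 cells 3 of the 10 genes were called in each setting that kept all libraries except edgeR, which called 5 (46 list genes against 30). Leaving out 1 library at a time gave 1 to 3 of the 10 genes and 10 to 15 list genes, and a log2 fold change of -0.25 to 0.091 for MET and -0.18 to 0.11 for IRS2. Same-numbered libraries did not deviate together (correlation 0.083 and 0.031), so the replicate block, which called 3 of the 10 genes in siTARG1 and 0 in RACK1-Mut cells, is given here alone. It called 22 list genes in siTARG1 cells. A mean of 50 in place of 20 left no gene too low to judge, exon reads as the denominator moved no 5′ UTR share beyond the replicate SD, and scaling by size factors of all 8 libraries moved no level ratio beyond it. The cause of these changes was not tested.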
